A study of Triticum aestivum with 8 samples.

Results

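The 150 transcripts described here were near the lower end of the array signal in non-acclimated winter wheat crowns and bright after cold acclimation, in a freeze resistant (FR) and in a freeze susceptible (FS) line alike. They are 150 of the 61115 wheat probe sets on the array, a probe set being a group of short probes for 1 transcript. A probe set was eligible when all 4 arrays of non-acclimated plants (NT) read under 4 on the log2 scale. Its gap was the lowest of the 4 arrays of cold-acclimated plants (CA) minus the highest NT array, and the 150 largest gaps were taken. Genes shown in the study's heat maps and those named rab, LEA, Em or EM were to be left out, which removed 4 probe sets that would otherwise have qualified. Of 41 heat-map accessions only 28 could be matched to probe sets, so the other 13 may still stand among the members without a name. The gaps ran between 4.57 and 13.40, with a median of 7.29.

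FR (SD16029) and FS (SD16169) are mutant lines from sodium azide treatment of the winter wheat cultivar 'Winoka'. CA plants spent 4 weeks at 4°C and the labels give 25°C for NT plants, which were harvested at the leaf stage at which the others entered the cold, so that cold and 4 more weeks of age cannot be told apart. RNA came from the crown, the stem base above the roots, and each group (FR CA, FS CA, FR NT and FS NT) has 2 arrays. The study describes these as technical replicates of RNA pooled from 3 biological replicates, so p-values measure only the spread between arrays, which may be technical.

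Winter wheat survives frost only after weeks of low, non-freezing temperature, and the crown is the organ from which a plant regrows. During that time CBF transcription factors bind the C-repeat element in the promoters of cold-regulated (COR) genes. Many products of those genes, among them the dehydrins and other late embryogenesis abundant (LEA) proteins, are hydrophilic proteins that protect membranes and enzymes against loss of water.

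The values are log2 signals normalized together by gcRMA. On each array 31.9% to 32.7% of the probe sets lay at a common lower limit of 2.15, and the array medians ran between 2.86 and 2.95. Arrays of 1 group correlated at 0.9947 to 0.9971 across probe sets, and CA with NT arrays at 0.9095 to 0.9226. In the hybridization controls, which are added just before an array is hybridized, the first FR CA array stood apart from the other CA arrays. The mean of these controls was 10.61 there, against 11.62 on the second FR CA array and 11.63 and 11.81 in FS CA. It was nearer to the NT arrays, with 10.76 to 11.05. The poly-A spike-in controls split by treatment, with means of 9.37 to 9.84 on CA arrays and 8.69 to 9.11 on NT arrays. Results with the arrays centred on them are given at the end. Leaf and seed tissue were checked by markers. Of 11 probe sets of seed storage proteins, 10 were under the array median on every array. The photosystem proteins PsbO and PsbP and petC, an iron-sulfur protein of the cytochrome complex, had 5 probe sets. Of these 5, 4 were lower in CA than in NT crowns in both lines. The summed signal of the 5 was 14.31 to 14.44 (log2) in FR CA and 14.56 to 14.64 in FS CA, against 15.91 to 16.00 in FR NT and 15.85 to 16.14 in FS NT. Probe sets of the photosynthesis gene rbcl were left out of this sum, and none of them was called in either line. The brightest, TaAffx.128414.1.A1_x_at, changed by -0.19 in FR and -0.35 in FS. Histones and tubulins were listed for the dividing shoot base. Histones fell by 4.90 to 10.04 in FR and 5.17 to 10.82 in FS, all but Ta.27192.1.S1_s_at, which rose. Tubulins changed by only -0.13 to -1.93 in FR and -0.20 to -2.17 in FS, all but Ta.723.1.S1_at, which fell by 6.69 and 6.85. Of the 28 probe sets of both 25 were lower after acclimation in FR and 24 in FS, with 1 higher in each. The summed signal of the 28 was 17.26 to 17.34 in FR CA and 17.12 to 17.28 in FS CA, against 19.16 to 19.31 in FR NT and 19.19 to 19.30 in FS NT. The part of these shifts in the results below was not tested, and in whole crowns more cells of a type cannot be told apart from more RNA per cell.

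In NT crowns the members were dim and much alike. Their median was 2.49 and 2.62 in FR NT and 2.55 and 2.53 in FS NT, and the highest single NT value was 3.96. Of the 150, 89 were under the array median on all 4 NT arrays, 38 on some of them and 23 on none. For 5 all 4 NT arrays read the common lower limit. A value above the array median need not be a measured level, since gcRMA can return 1 and the same value for a probe set on several arrays: 16426 of all probe sets had 1 value on all 8 arrays, between 2.15 and 8.43, compared to 4 decimals. Of the 150 members 13 had 1 value on all 4 NT arrays and 99 had 1 value on at least 2 of them, and of the 23 these were 4 and 20.

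In CA crowns the same probe sets covered most of the range of the array. Their median was 10.24 and 10.29 in FR CA and 10.64 and 10.49 in FS CA, within a range of 7.02 to 16.51. By the median of the 4 CA arrays, 39 members lay between 7 and 9, 51 between 9 and 11, 35 between 11 and 13, and 25 above 13. There were 13 members among the 500 brightest probe sets of CA crowns.

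**Figure D1:**
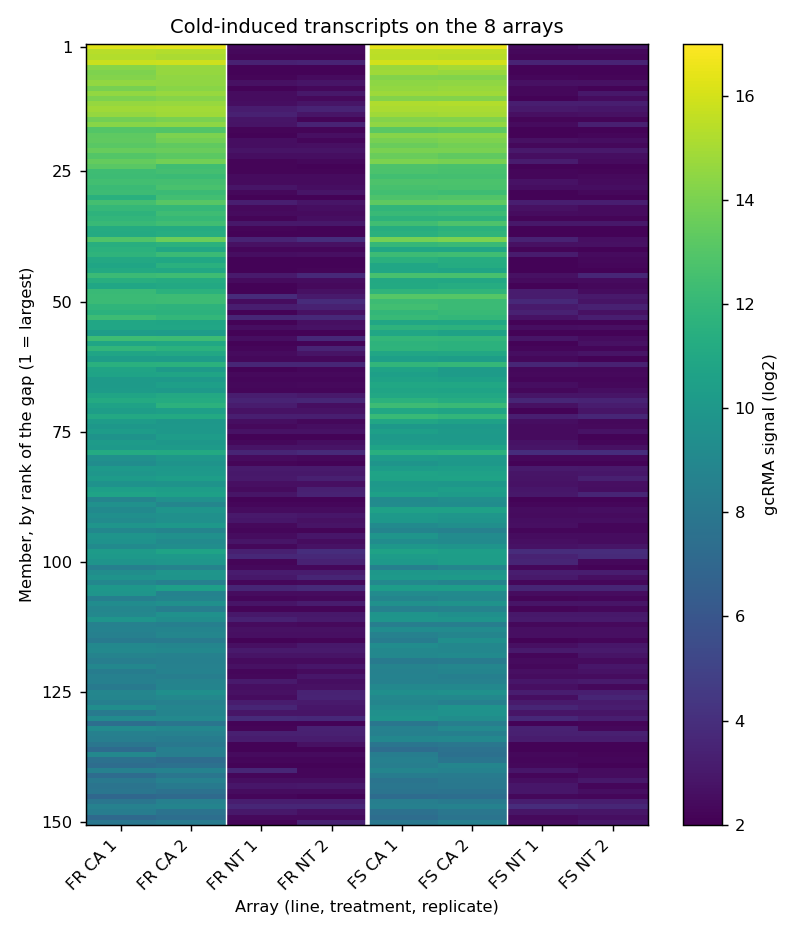
Signal (gcRMA, log2, colour scale) of the 150 members (rows, largest gap at the top) on the 8 arrays (columns, by line, treatment and replicate). The CA columns of both lines run between 7.02 and 16.51, and no NT cell is above 3.96.

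Read against NT, the members were higher in CA by 4.88 to 13.89 (log2) in FR, with a median of 7.57, and by 4.83 to 13.80 in FS, with a median of 7.86. With NT signals under the array median raised to it, the median ratio over the members was 146.8-fold in FR and 187.5-fold in FS, and for the 23 without such signals nothing was raised. All 150 passed limma at an adjusted p under 0.05 in each line, where the call was made for 15.3% of all probe sets in FR and 16.4% in FS. The rule chose them on this difference, so these numbers describe the choice. The same rule turned round, with CA under 4 and NT above it by at least the same gap, found 313 probe sets.

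Most of these transcripts have no name. Only 7 of the 150 (4.67%) carry a gene symbol, against 2.08% of all probe sets, and those 7 symbols are bare locus numbers with no annotated function. The other 143 are known here by their probe set alone. In such a name the stem, as in Ta.18720, stands for the cluster of expressed sequences behind the probe set, and the ending says how specific its probes are: a_at probes match transcripts of 1 gene, s_at probes are shared by several transcripts, and x_at probes may bind others too. Bread wheat carries near-identical copies of most genes in its subgenomes, and the array cannot be taken to separate them.

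The largest gap belonged to Ta.2638.1.S1_at. It read 16.25 and 16.39 in FR CA and 16.46 and 16.51 in FS CA, against 2.46 and 2.39 in FR NT and 2.51 and 2.85 in FS NT. Its signal in CA was close to the highest of any probe set on those arrays, 16.71 to 16.89. With NT signals under the array median raised to it, the ratio was 10656.5-fold in FR and 12015.8-fold in FS. Ta.14247.1.S1_at followed, with 15.41 and 15.27 in FR CA and 15.48 and 15.50 in FS CA, and 2.33 on all 4 NT arrays. The third was Ta.2787.1.S1_at, of the gene LOC542888, with 15.30 and 15.12 in FR CA and 15.42 and 15.37 in FS CA, against 2.23 on every NT array. In all 3 the arrays of CA and NT crowns were 12.89 or more apart.

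The next places of the first 10 were held by Ta.18720.3.S1_x_at, Ta.13396.1.S1_at, Ta.24158.1.S1_a_at, Ta.22766.1.S1_a_at, Ta.22049.1.S1_at, Ta.6059.1.S1_at of LOC543264, and Ta.18720.1.S1_x_at, with gaps of 12.29 to 11.55. Ta.18720.3.S1_x_at, the next after it among the members by their median in CA crowns, read 15.80 and 15.85 in FR CA and 15.95 and 15.98 in FS CA, against 3.38 and 3.51 in FR NT and 3.51 and 3.51 in FS NT. Its NT values were above the array median, with 1 value on 3 of the 4 arrays. For Ta.13396.1.S1_at all 4 NT arrays were at the lower limit, while it read 14.32 and 14.60 in FR CA and 14.74 and 14.99 in FS CA. The fifth of the brightest members in CA crowns, TaAffx.46097.1.S1_at, has no symbol but shares its cluster with a probe set of the dehydrin gene rab15 that the rule left out. It gave 14.89 and 14.93 in FR CA and 15.10 and 15.08 in FS CA, against 3.17 and 3.52 in FR NT and 3.04 and 2.92 in FS NT.

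**Figure D2:**
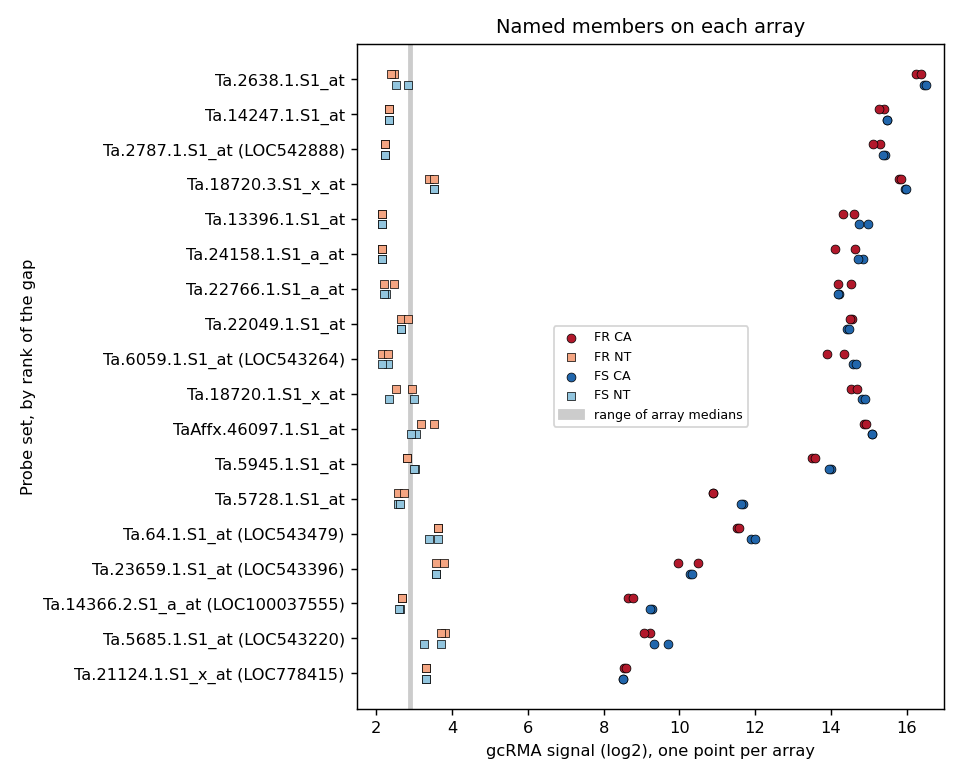
Signal (gcRMA, log2) of 18 named members, 1 point per array, FR above FS within each row and rows in order of the gap. CA points (circles) lie at 8.50 or more and NT points (squares) at 3.80 or less, beside the range of the array medians (grey band, 2.86 to 2.95).

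The other 5 members with a gene symbol were dimmer. Ta.64.1.S1_at of LOC543479 read 11.51 and 11.57 in FR CA and 11.89 and 11.99 in FS CA, against 3.62 and 3.62 in FR NT and 3.62 and 3.39 in FS NT. Ta.23659.1.S1_at of LOC543396 read 9.97 and 10.50 in FR CA and 10.27 and 10.35 in FS CA, against 3.58 and 3.79 in FR NT and 3.58 on both FS NT arrays. Both lines overlapped in CA for LOC543396 and not for LOC543479. Ta.14366.2.S1_a_at of LOC100037555 gave 8.63 and 8.77 in FR CA and 9.29 and 9.24 in FS CA, against 2.67 and 2.68 in FR NT and 2.62 and 2.60 in FS NT. Ta.5685.1.S1_at of LOC543220 gave 9.22 and 9.05 in FR CA and 9.71 and 9.34 in FS CA, against 3.80 and 3.72 in FR NT and 3.72 and 3.25 in FS NT. In both of these the FS arrays were above the FR arrays in CA. Ta.21124.1.S1_x_at of LOC778415 differed least between lines, with 8.55 and 8.59 in FR CA and 8.52 and 8.50 in FS CA, against 3.30 on all 4 NT arrays.

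At the other end of the list the step was small. The last member, TaAffx.34169.1.S1_at, had a gap of 4.5745, with 7.95 and 8.21 in FR CA and 7.99 and 8.55 in FS CA, against 2.21 and 3.37 in FR NT and 2.47 and 2.90 in FS NT. Before it came Ta.13938.1.S1_at (gap 4.58) and Ta.9682.1.S1_at (gap 4.65). The nearest probe sets left outside, TaAffx.137429.1.S1_at, Ta.12787.1.S1_at and Ta.19483.2.S1_at, had gaps of 4.5663, 4.54 and 4.51. Ta.19483.2.S1_at read 8.42 and 8.47 in FR CA and 8.79 and 9.32 in FS CA, against 3.91 and 3.77 in FR NT and 3.83 and 3.81 in FS NT. Nothing in these values set the last members apart from those that just missed the list.

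Whether the response holds in plants that did not enter the choice was asked by choosing on 1 line and measuring the other. The 150 probe sets with the largest gaps on the FR arrays alone included 139 of the members. The FS arrays had no part in that choice, but all arrays were normalized together and the calls in both lines share 1 estimate of spread. In FS all 150 were called higher in CA (16.4% of all probe sets were), by 4.77 to 13.80 with a median of 7.91. Both CA arrays were above both NT arrays for each. Chosen on the FS arrays alone, 150 probe sets included 137 members, and all were called higher in FR (15.3% of all probe sets), by 4.12 to 13.89 with a median of 7.57. The gap was larger in FS than in FR for 118 of those chosen on FR. It was also larger in FS for 133 of those chosen on FS, which that choice favours. The smallest gap in the line left out was 4.47 in FS and 3.77 in FR.

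**Figure D3:**
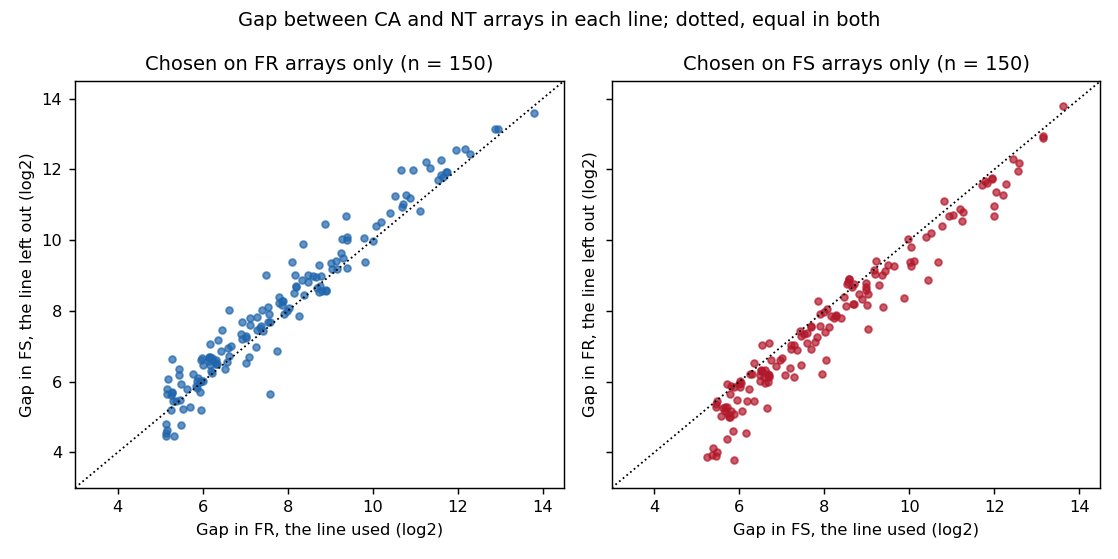
Gap between CA and NT arrays (log2) in the line used for the choice (x axis) and in the line left out (y axis), 150 probe sets a panel, 1 point per probe set. On the left, chosen on FR, 118 points lie above the dotted line of equal gaps, and on the right, chosen on FS, 17 do.

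The lines were then compared with each other within a treatment, which the rule did not use directly. It asks for a high CA and a low NT value in both lines, however, and so limits how far they can differ. In CA crowns 113 of the 150 members (75.3%) had a lower mean in FR than in FS, with a median difference of -0.23 (log2) and a range of -1.13 to 0.79. Among the 17414 probe sets as bright in CA as the dimmest member, 64.4% were lower in FR, with a median of -0.07. Counted by cluster, 100 of the 131 clusters (76.3%) had a negative median. The FS arrays both lay above both FR arrays for 82 members (54.7%, against 34.7% of the equally bright probe sets and 15.5% of all) and below them for 15 (10%, against 16.4% and 9.59%).

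This shift was shared by transcripts with a smaller gap. Of the 150 probe sets that follow the members in the ranking, 116 (77.3%) were lower in FR, with a median difference of -0.31, a set described only after the members' values had been seen. Of the 8624 probe sets called higher with acclimation in both lines, 71.8% were, with a median of -0.11. The first FR CA array was the lowest of the 4 CA arrays for 86 members and the second for 39, against 11 and 14 for the FS CA arrays. Without the first FR CA array, whose hybridization controls stood apart from the other CA arrays, 111 members were lower in FR, and without the second 113. The part of differences between arrays in this shift was not tested.

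**Figure D4:**
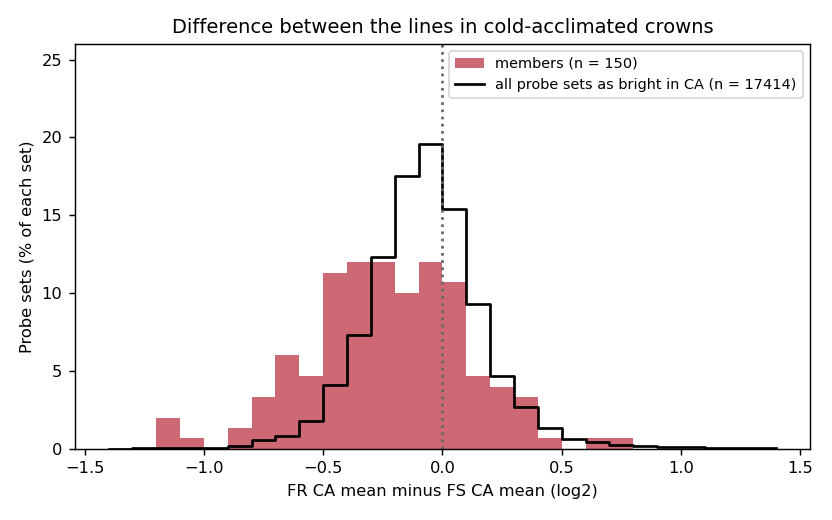
Difference between the group means in CA crowns, FR minus FS (log2, bins of 0.1), as the share of the 150 members (bars) and of the 17414 probe sets at least as bright in CA (line). Both are shifted to the left of 0, with 75.3% of the members and 64.4% of the larger set negative, which includes the members.

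For single transcripts few of these differences passed the test. FR and FS differed in CA in 2 members at an adjusted p under 0.05 in limma, both lower in FR, where 0.373% of all probe sets (0.247% higher, 0.126% lower) and 0.299% of those as bright were called, and 48 members had an unadjusted p under 0.05. Ta.5728.1.S1_at read 10.89 and 10.89 in FR CA against 11.67 and 11.64 in FS CA, a difference of -0.77 (95% interval -0.93 to -0.60, limma adjusted p = 0.0404). Ta.5945.1.S1_at read 13.50 and 13.58 in FR CA against 14.01 and 13.95 in FS CA, a difference of -0.44 (95% interval -0.54 to -0.35, limma adjusted p = 0.0404). Both rose in both lines, by 8.24 in FR and 9.05 in FS for Ta.5728.1.S1_at and by 10.73 in FR and 10.97 in FS for Ta.5945.1.S1_at. Neither call was stable: the adjusted p of Ta.5728.1.S1_at was over 0.05 in each of 14 alternative settings (0.0522 to 0.996) and that of Ta.5945.1.S1_at in 12 of them, all but the 2 that leave out an FR CA array.

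The largest differences between the lines did not pass. TaAffx.131520.1.S1_x_at read 9.11 and 9.82 in FR CA against 10.59 and 10.61 in FS CA (-1.13, limma adjusted p = 0.285), and TaAffx.94344.1.S1_at read 7.33 and 7.62 in FR CA against 8.39 and 8.83 in FS CA (-1.13, limma adjusted p = 0.206). Ta.10760.1.S1_at read 8.13 and 8.75 in FR CA against 9.50 and 9.64 in FS CA (-1.13, limma adjusted p = 0.243). In all of them FR was lower on both arrays, and the adjusted p of TaAffx.131520.1.S1_x_at was 0.0459 without the first and 0.00901 without the second FR CA array, that of Ta.10760.1.S1_at 0.0175 without the second. Among members with both FR arrays above both FS arrays, Ta.5843.1.S1_x_at differed most, with 9.03 and 8.41 in FR CA against 8.35 and 7.51 in FS CA (0.79, limma adjusted p = 0.784). Ta.11720.1.A1_at followed, with 9.82 and 10.02 in FR CA against 9.15 and 9.41 in FS CA (0.64, limma adjusted p = 0.574). For 110 of the 150 members the 95% interval of the difference lay within 1 (2-fold) on either side of 0, and for the other 40 it did not. Like the p-values, these intervals measure only the spread between arrays, and the rule limits how far the lines can differ. They therefore do not bound the difference between plants of the lines.

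Before acclimation no member was called between the lines (0 called by limma, 7 at an unadjusted p under 0.05, against 0.0213% of all probe sets called, 0.0131% higher and 0.00818% lower), with differences of -0.60 to 0.70. Many NT values of the members were near the lower limit or repeated, so this does not show equal levels. No member was called for the response to cold, FR minus FS, either (0 called by limma, 28 at an unadjusted p under 0.05, against 0.108% of all probe sets called, 0.0638% higher and 0.0442% lower, and 0.0632% of those as bright). The response was smaller in FR for 111 members (74%, against 56.5% of the equally bright probe sets), with a median of -0.26 and a lowest limma adjusted p of 0.129, that of Ta.5728.1.S1_at. With NT values kept low by the rule, this is not separate from the line difference in CA. The equally bright probe sets had no such limit in NT.

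Several members stand for 1 cluster. The 150 came from 131 clusters, 119 of them with 1 member, and 31 members shared 12 clusters, so that they are not independent transcripts. The 4 members of Ta.18720 had medians of 14.23 to 15.90 in CA crowns and rose by 11.26 to 12.38 in FR and by 11.66 to 12.45 in FS. Those of Ta.13396 spread more widely, by 8.31 to 12.31 in FR and 9.15 to 12.71 in FS, with 3 members. In 7 of the 12 shared clusters each member was lower in FR than in FS in CA, in 1 each was higher (Ta.22766, by 0.11 to 0.25), and in 4 the members differed in direction.

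The clusters also hold 108 probe sets that are not members. They were read on the same 8 arrays, were not taken by the rule, and can share probes or target with the members. Their counts are therefore not independent of the choice. TaAffx.143995 accounts for 50 of the 108, only 4 of them called higher in both lines, so that its stem does not stand for 1 expression pattern. Of the other 58, 37 were called higher in both lines, where 14.1% of all probe sets were, and 13 of the 21 not so called were under the array median on every array. Of those with at least 1 NT array at 4 or more, which the rule could not take, 30 of 32 were called higher in both lines.

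A few of these are given here, picked out after their values had been seen. Ta.9389.1.S1_at read 16.36 and 16.38 in FR CA and 16.40 and 16.44 in FS CA, against 5.56 and 4.81 in FR NT and 5.19 and 5.91 in FS NT, a rise of 11.19 in FR and 10.87 in FS. The member of its cluster, Ta.9389.2.S1_at, reached only 10.04 and 10.05 in FR CA and 10.30 and 10.35 in FS CA, against 3.67 and 3.73 in FR NT and 3.44 and 3.79 in FS NT. Levels of different probe sets cannot be set against each other, so these values show only that both rose. In Ta.20582 the members read low in NT crowns, while Ta.20582.3.S1_a_at of the same cluster, which missed the list by its NT signal and by its small gap of 0.946, read 15.56 and 15.72 in FR CA and 15.63 and 15.62 in FS CA, against 14.57 and 14.57 in FR NT and 14.46 and 14.62 in FS NT, and rose by 1.07 in FR and 1.08 in FS.

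**Figure D5:**
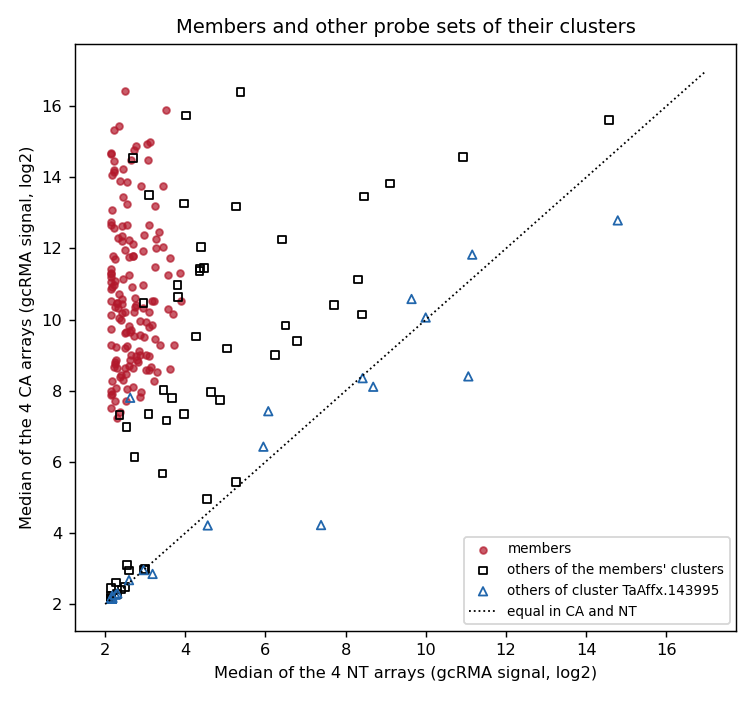
Median of the 4 CA arrays (y axis) against the median of the 4 NT arrays (x axis), both gcRMA signals in log2, for the members (filled), the other 58 probe sets of their clusters (squares) and the 50 others of TaAffx.143995 (triangles). Squares with a signal in NT lie mostly above the dotted line of equal signal, and triangles lie on both sides of it.

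In the cluster Ta.154 the lines differed in 1 direction throughout. Its member Ta.154.4.S1_at read 11.05 and 11.11 in FR CA against 12.10 and 11.85 in FS CA, a difference of -0.90 (95% interval -1.31 to -0.49, limma adjusted p = 0.204). All 7 probe sets of the cluster had both FS arrays above both FR arrays in CA, with differences of -1.03 to -0.42. None of the 7 passed the test (lowest limma adjusted p = 0.204), and their probes may bind the same transcripts.

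The genes behind the named members gave different pictures. For LOC542888 a second probe set, Ta.13255.1.S1_at, read 15.14 and 15.44 in FR CA and 15.65 and 15.61 in FS CA, against 3.94 and 4.88 in FR NT and 4.03 and 4.55 in FS NT. It rose by 10.88 ± 0.37 (SE) in FR and 11.34 ± 0.37 in FS (limma adjusted p = 0.000109 and 8.97e-05), so that both probe sets of this gene moved together. The second probe set of LOC543479, Ta.2799.1.S1_x_at, read 10.65 and 10.67 in FR CA and 11.69 and 11.73 in FS CA, against 8.99 and 8.29 in FR NT and 8.19 and 8.32 in FS NT, and rose by 2.02 in FR and 3.46 in FS. The second probe set of LOC543264 did not follow its member. Ta.130.1.S1_at read 14.81 and 14.68 in FR CA and 14.47 and 14.39 in FS CA, against 14.62 and 14.69 in FR NT and 14.73 and 14.71 in FS NT. Its change was 0.09 in FR (limma adjusted p = 0.422) and -0.29 in FS (limma adjusted p = 0.0259). The FS call was lost in 5 alternatives, and with the arrays centred on the spike-in controls the FR change was -0.61. The other probe sets of LOC778415, Ta.21124.2.S1_at and Ta.21124.2.S1_x_at, read between 2.15 and 3.03 on all 8 arrays and were called in neither line.

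The names of the probe sets were compared with those of other bright ones. Of the 150, 118 (78.7%) came from the Ta clusters and 32 from the TaAffx clusters of the array, against 80.3% Ta among the probe sets as bright in CA and 51.4% among all. The plain ending at was carried by 109, x_at by 23, a_at by 11 and s_at by 7. Plain endings made up 72.7% of the members, 60.5% of the equally bright probe sets and 79.2% of all, and a_at endings 7.33%, 13.8% and 5.43%. The letter A before the last number of the name stood in 11.3% of the members, 19.8% of the equally bright probe sets and 17.4% of all.

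Only few known cold genes could be set beside the members. None of the 14 lists of named genes (COR, dehydrin and LEA, fructan, ice recrystallization, sugar, lipid transfer, pathogenesis-related, heat shock, antioxidant, proteinase inhibitor, transcription factor, photosynthesis, dividing shoot base and seed storage genes) holds a member. The lists were matched by name, which the 143 members without a symbol could not be, and the rule had removed some such genes. This absence therefore says nothing about what the members encode. The dehydrin and LEA list, which the rule had set aside by name, has 9 probe sets, of which 6 rose with acclimation in FR and 7 in FS. Among them Ta.2704.1.S1_at of the dehydrin gene rab15 read 15.47 and 15.61 in FR CA and 15.69 and 15.61 in FS CA, against 4.60 and 6.69 in FR NT and 3.54 and 5.50 in FS NT. Both probe sets of the lipid transfer protein gene LTP3 were lower in both lines. The small heat shock protein gene hsp16.9A, whose protein binds unfolded proteins, read 2.37 on each CA array, against 11.30 and 12.82 in FR NT and 12.94 and 11.14 in FS NT, the reverse of the members. Of 11 antioxidant probe sets 4 were higher and 4 lower in each line. None of 33 photosynthesis probe sets was higher and 4 were lower in each line, as were 2 of 6 pathogenesis-related ones and the 1 transcription factor matched. The fructan enzymes have 4 probe sets, with 0 rising and 1 falling in FR, against 2 rising and 1 falling in FS. The sugar, proteinase inhibitor and seed storage lists (1, 5 and 11 probe sets) had none called, and the ice recrystallization list matched none. The 1 probe set matched as a cold-regulated gene, of COR410, read 2.15 to 2.24 on all arrays. That is near the common lower limit, so a response could not be read from it.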

How the data were processed

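Crown RNA was hybridized to 8 Affymetrix wheat arrays, 2 per group. The deposited log2 values came from the authors' gcRMA run in R/Bioconductor, which corrects for background and scales the arrays to each other. RMA and GCRMA are also listed in the submitters' notes. No raw intensities were used. Of 61290 probe sets, 111 AFFX and 64 RPTR controls were set aside.

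Each of the 61115 others was fitted with limma 3.58.1 in R 4.3.3, with 4 group means and variances moderated along a trend with mean signal (residual degrees of freedom 4, prior 0.623), without further normalization or filter. The Benjamini-Hochberg adjustment of p-values ran over all 61115, and a call is an adjusted p under 0.05. In simulated data on 61115 probe sets, changes were added to FR CA alone and the calls of FR against FS in CA were counted. Of 50 probe sets each with log2 changes of 0.5, 1, 2 and 4, 12%, 24%, 58% and 90% were recovered. Among 60915 unchanged probe sets, 7 were called. The simulated arrays had independent noise around 1 mean per probe set and no cold effect. All changed probe sets were well above the lower limit, so these shares hold for that setting only. Plots used matplotlib 3.10.9 under Python 3.11.15. The depth of an array is not a count, so the number of arrays limits the precision.

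The rule matched 28 genes of the study's heat maps to 35 probe sets, and 9 more were left out by the names rab, LEA, Em or EM, which are synonyms in the gene table. This left 61071, of which 32834 had all NT arrays under 4 and 1776 of those had a gap above 0. Gene symbols came from the platform annotation (1273 probe sets), and synonyms from a gene table. Folds with raised NT signals are ratios of group means after values under an array's median were raised to it, and they leave out the spread between arrays. The array median is not a detection limit, so these folds are not strict lower bounds. The members and gene lists were chosen with earlier results of these data known. Named members are those with a symbol, the 10 largest gaps, the 5 brightest in CA, the 5 largest line differences each way without overlap, those called between lines, and the 3 on each side of the limit. Promoter and protein sequences were not used here, and the planned motif search was not run.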

Additional observations from a re-analysis of the deposited data

How the results depend on the processing

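All 150 members were called higher in CA in FR and in FS under each of the 14 alternatives run: 2 centrings, a floor, a filter, robust variances, the replicate block and leaving out each of the 8 arrays, where a lone array is assumed to vary like the others. The rule, which chose them on this difference, leaves little room for another outcome, so this is no sign of stability. The 2 members called between FR and FS in CA became 0 with arrays centred on their medians, centred on the spike-in controls, values raised to the array median, a filter on dim probe sets, robust variances or the replicate block, and 0 to 5 with 1 array left out, the 5 without FR CA replicate 2. With 1 array left out, members called in NT numbered 0 to 2, the 2 without FR NT replicate 2, and those called for the difference in response 0 to 3, the 3 without FR CA replicate 2. Leaving out an array took the number lower in FR to between 111 and 113.

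Counts over all probe sets moved more. The calls of CA against NT in FR were 17687, and 41893 with median centring, 46129 with spike-in centring and 48380 with the floor. In FS they were 18419, and 43048, 46613 and 48997 in the same order. Spike-in centring moved the median of all probe sets by -0.70 in both lines, median centring by 0.07, and the share of calls that were higher in FR was 52.9% as deposited, 78.2% with median centring, 11.2% with spike-in centring and 22.3% with the floor. The calls between lines in CA were 228, and 428 with spike-in centring, 35 with robust variances, 35 with the replicate block and 32 to 2170 with 1 array left out. In NT they were 13, and 7 with median centring, 2 with spike-in centring, 1 with the floor, 0 with the filter, 4 with robust variances and 14 to 1212 with 1 array left out. For the difference in response they were 66, and 192 with spike-in centring, 20 with the filter, 15 with robust variances, 22 with the replicate block and 888 to 1862 with 1 array left out. Other probe sets of the members' clusters called higher were 41 in each line, and 84 in FR and 81 in FS with median centring. With an NT ceiling of 3 the list kept 98 of the 150 members. The cause of these moves was not tested.

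No label says that a replicate number marks a shared batch or day, so the fit as reported has no block. Deviations of same-numbered arrays nevertheless correlated at 0.245 to 0.474 in 5 of 6 pairs of groups and at 0.091 in the other, so a factor shared by equal numbers is possible, and with 2 arrays a group this could not be settled. The replicate block changed no other call of the members than the 2 in CA.

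Some small differences turned direction. With spike-in centring the change was -0.61 in FR for Ta.130.1.S1_at, -0.65 in FS for Ta.21124.2.S1_at, and -0.46 in FR and -0.20 in FS for Ta.21124.2.S1_x_at. With the floor it was -0.070 in FS for Ta.21124.2.S1_at and -0.066 in FR for Ta.21124.2.S1_x_at, and the difference in response was -0.17 for Ta.2638.1.S1_at, 0.049 for Ta.22049.1.S1_at and 0.027 for Ta.8269.1.S1_at. With 1 array left out, the difference in response ranged over -0.63 to 0.033 for Ta.18720.1.S1_x_at, -0.12 to 0.059 for Ta.22049.1.S1_at, -0.12 to 0.22 for Ta.22766.1.S1_a_at, -0.45 to 0.077 for Ta.23659.1.S1_at, -0.085 to 0.26 for Ta.2638.1.S1_at, -0.58 to 0.58 for Ta.8269.1.S1_at and -0.88 to 0.29 for TaAffx.34169.1.S1_at. With 1 array left out, the line difference in CA ranged over -0.0073 to 0.33 for Ta.22766.1.S1_a_at, -0.34 to 0.19 for Ta.23659.1.S1_at, -0.049 to 0.61 for Ta.9682.1.S1_at and -0.47 to 0.091 for TaAffx.34169.1.S1_at. The number of arrays, 2 of pooled RNA per group, limits the precision of every line difference.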
